A study of Ovis aries with 27 samples.

Results

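Transcripts of 5 genes of the excitable heart cell were followed in the cardiac septum, which divides the left from the right side of the heart, of fetal sheep late in gestation: the sodium pump subunit ATP1B1, the potassium channel KCNK3, the gap junction protein GJA1, the beta-1 adrenergic receptor ADRB1 and the calcium sensor CALM2. Probes were taken for these genes by gene name, RefSeq accession or description in the array files, which gave 10 of the 15008 probes besides control spots and 5 of the 797 named genes tested. ADRB1 and CALM2 had 1 probe each, ATP1B1 and KCNK3 had 2 each, and GJA1 had 4. All 10 probes were well above background on 27 of 27 arrays, so none was lost to the filter on dim probes.

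The ewes received cortisol, the main glucocorticoid of sheep, at 1 mg/kg/day by continuous infusion, or vehicle, and RNA of each fetal septum was labelled with Cy3 and hybridised to its own Agilent array. The 6 control and 6 cortisol fetuses of the younger cohort were collected at 129 to 131 d of gestation, after about 10 d of infusion, and are called the 130 d groups. The older cohort had 8 control and 7 cortisol fetuses, collected at 139 to 144 d after about 25 d of infusion, and these are called the 140 d groups. A further label puts the start of infusion near day 115 for all ewes, against day 120 elsewhere for the younger cohort. The 8 control fetuses of 140 d had 7 mothers, and the labels do not say which are the twins, so each fetus entered as 1 sample. Fetuses of 140 d were older, of another cohort and infused for longer than those of 130 d, and these 3 cannot be told apart.

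A heart muscle cell fires and recovers because ions are held in gradients and let through channels in turn. The sodium pump, built from an alpha subunit and a beta subunit such as ATP1B1, spends ATP to export sodium and import potassium. KCNK3 is a background potassium channel (TASK-1) that leaks potassium and helps hold the resting voltage, and GJA1 (connexin 43) forms the main gap junction channels through which ventricular muscle cells pass current to each other. ADRB1 is the main beta receptor of the heart and raises the rate and force of the beat through cyclic AMP, while calmodulin, which CALM2 is one of several genes to encode, binds calcium and regulates channels, kinases and the phosphatase calcineurin. Late gestation is the time when fetal cortisol rises and heart muscle matures for birth.

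The probes are single strands of 60 bases, and the letters show what each reading rests on. The KCNK3 pair is shown because the results below turn on it: the probes start 1 base apart, share 59 of 60 bases, and the capital marks the base that the other probe lacks.

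KCNK3, probe at base 269: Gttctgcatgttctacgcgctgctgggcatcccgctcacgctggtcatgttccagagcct

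KCNK3, probe at base 270: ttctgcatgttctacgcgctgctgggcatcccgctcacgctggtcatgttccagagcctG

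The 2 GJA1 probes of one of its records (record 2) are shown because they were the GJA1 probes past the threshold, and they share 0 bases end to end, so they are separate readings of the message. The GJA1 pair of record 1, named by the older name CONNEXIN 43, overlaps by 20 bases. For ADRB1 the only probe is shown.

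GJA1, record 2, probe at base 702: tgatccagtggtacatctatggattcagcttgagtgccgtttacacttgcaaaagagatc

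GJA1, record 2, probe at base 502: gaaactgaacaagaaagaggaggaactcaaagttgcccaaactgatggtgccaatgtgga

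ADRB1, probe at base 378: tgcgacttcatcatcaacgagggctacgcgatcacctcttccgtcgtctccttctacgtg

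The CALM2 probe is given up to the stop codon in capitals, 51 of its 60 bases, since that stretch shows that it reads the last codons of the message.

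CALM2, probe at base 467: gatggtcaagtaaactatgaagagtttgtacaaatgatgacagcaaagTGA

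Base numbers count from the start of the sequence record that each probe was designed on, as the files give them, and no genome position is given here because the files name no build. GC content of the KCNK3 probes was 60.0%, higher than in 98.4% of all probes, against a median of 43.3%. ADRB1 had 55.0%, and the other 7 probes lay between 35.0% and 45.0%.

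Levels are log2 intensities relative to the 75th percentile of the same array, so 0 is the brightness below which 75% of that array's spots lie. They compare 1 probe across arrays and never 1 probe with another. Differences came from a single limma fit over the 27 arrays and 12770 probes, with the standard error (SE), and a probe was called when its adjusted p was under 0.05. A gene with several probes is described by its brightest, and the others are given beside it. In bulk tissue, fewer cells of a type and less RNA per cell cannot be told apart.

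The share of spots well above background ran from 77.0% to 87.0% over the arrays, and no spot was saturated (0 spots). Brightness was lower at 140 d, with a 75th percentile of 838 ± 59.3 (SD, n = 8) in controls against 1160 ± 101 (SD, n = 6) at 130 d. Arrays correlated with each other at 0.933 to 0.990 over the tested probes, and 2 stood apart: the cortisol 140 d array of replicate 4, with a mean correlation of 0.9535 with the others, and the control 140 d array of replicate 1, with 0.9628, against 0.9726 for the next lowest. The first of these was also the dimmest, with a 75th percentile of 602. For several differences of the 5 genes, values without 1 or both of these arrays are given below. Correlations, marker lists and partner genes are given with all 27 arrays only. The arrays lay on 5 slides, and slide 5 held 3 control and 1 cortisol fetus of 140 d and none of 130 d. Heart muscle genes MYH7 and MB were well above background on 27 of 27 arrays, while no gene of the conduction system list was among those tested.

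**Figure D1:**
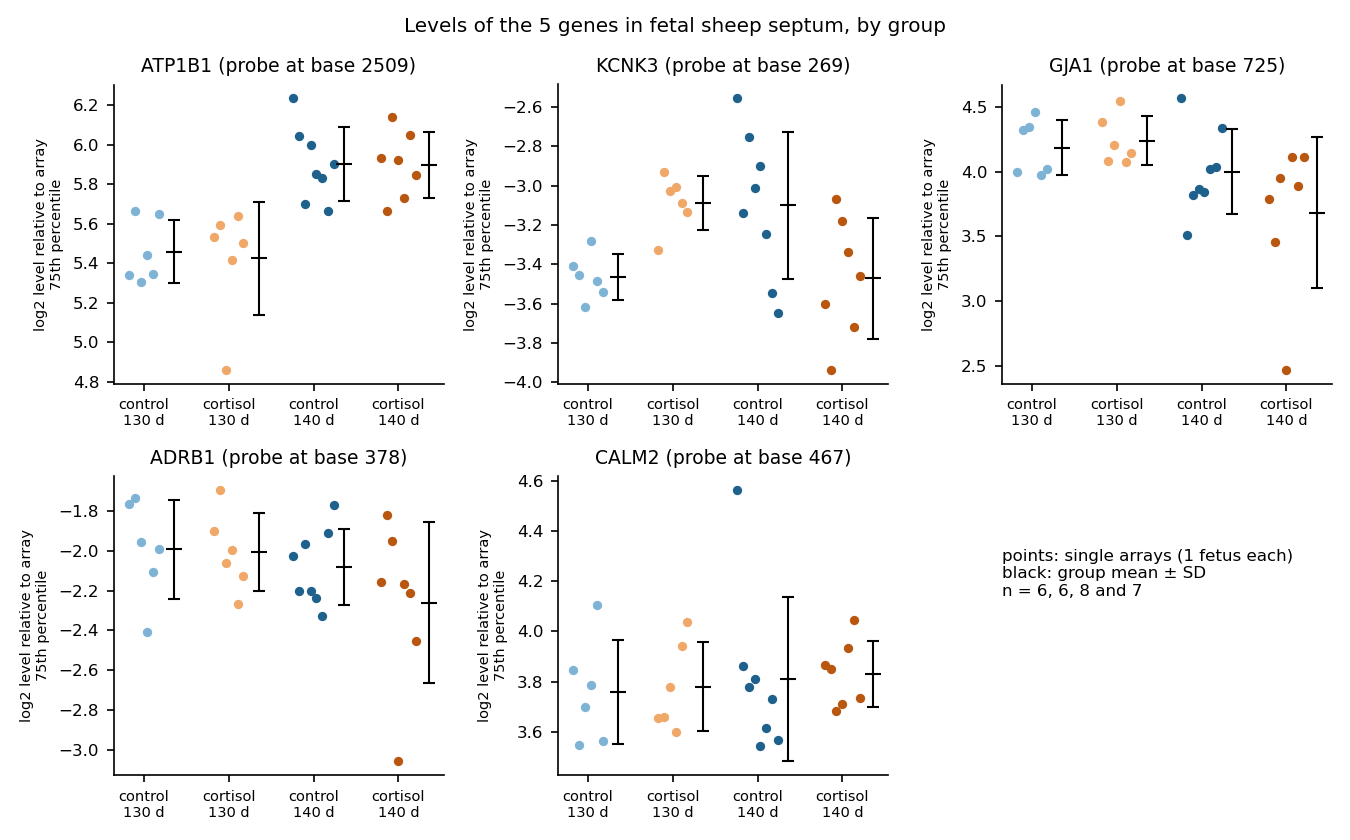
Levels of the 5 genes, each by its brightest probe, in the 4 groups (log2 level relative to the array's 75th percentile; each point is 1 fetus, and black marks are group means ± SD). ATP1B1 sat higher in both 140 d groups than in both 130 d groups. A single low cortisol 140 d array, at 2.47, stands out for GJA1, and a single high control 140 d array, at 4.56, for CALM2.

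ATP1B1 was the only one of the 5 genes whose brightest probe was called between ages as fitted, and it was higher at 140 d in both arms. In control fetuses it was 1.36-fold higher at 140 d than at 130 d, and in cortisol fetuses 1.39-fold higher. With cortisol at a fixed age it differed from control by 0.03 or less on the log2 scale by this probe, and it was not called. Processed intensity of this probe was high, from 32782 to 64038 around a median of 50337. The mean 75th percentile, to which levels are relative, fell with age from 1160 to 838 in controls. In cortisol fetuses it fell from 1093 to 884. What the probe's brightness and the lower 75th percentile contribute to the ATP1B1 rise was not tested.

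In the 6 control fetuses at 130 d the brightest ATP1B1 probe, at base 2509, ran from 5.30 to 5.67 around a median of 5.39. At 140 d the 8 controls ran from 5.67 to 6.23 around 5.88. The groups did not overlap, but they met at 5.67: the lowest array of the older group and the highest of the younger group differed by under 0.01. The difference was 0.45 ± 0.11 (SE), with an adjusted p of 0.00835 from limma, and 8 of 8 older arrays lay above the younger mean. Over all probes 19.1% were called in this comparison, 9.77% higher and 9.35% lower, so a single gene called out of 5 lies near the background.

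In the cortisol arm the 130 d fetuses ran from 4.86 to 5.64 around 5.52. The 140 d fetuses ran from 5.66 to 6.14 around 5.92, and 7 of 7 lay above every younger array. The difference was 0.47 ± 0.12 (SE; limma adjusted p 0.00887), in a comparison in which 13.5% of all probes were called, 4.94% higher and 8.52% lower. Leaving out the low cortisol 130 d array, replicate 3 at 4.86, gave the smallest value, 0.36, and the call stayed.

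The other ATP1B1 probe, 60 bases upstream at base 2449, was called in the same direction in both arms. In controls it ran from 4.41 to 5.03 at 130 d and from 4.99 to 5.35 at 140 d, which overlap, with a difference of 0.43 ± 0.11 (SE; limma adjusted p 0.00907). In cortisol fetuses it ran from 4.11 to 4.76 and from 4.91 to 5.44, with no overlap, and the difference was 0.64 ± 0.12 (SE; limma adjusted p 0.000956). Both probes followed each other closely, with a correlation of 0.931 over the 27 arrays and 0.852 after group means were taken out, on the same RNA and the same array.

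The size and the call of the ATP1B1 rise depended on how the arrays were scaled. With quantile normalization the brightest probe differed by 0.23 in controls (limma adjusted p 0.104) and 0.24 in cortisol fetuses (0.127), and with normexp background correction by 0.35 (0.352) and 0.58 (0.108), so neither setting called it. The other probe was called with quantile normalization in cortisol fetuses (0.49, adjusted p 0.00395) and not in controls (0.24, 0.103), and with normexp in neither arm (0.62 and 0.42, adjusted p 0.0665 and 0.201). Scaling to the median instead raised the median difference of all probes by 0.0898 in controls and 0.1015 in the cortisol arm, and ATP1B1 to 0.54 and 0.57. The direction was the same in every one of these settings for both probes. Within slides 2, 3 and 4, which held both ages, the control difference was 0.64, 0.48 and 0.35 and the cortisol difference 0.34, 0.69 and 0.48.

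Cortisol itself left ATP1B1 with differences near 0. At 130 d the difference from control was -0.03, with a 95% interval of -0.28 to 0.22, and at 140 d it was -0.01, with an interval of -0.23 to 0.22. The other probe gave -0.20 at 130 d, with an interval of -0.44 to 0.05, and 0.01 at 140 d. In both comparisons 0% of all probes were called, with 0 of 5 genes among them. At an unadjusted p under 0.05 limma gave 455 probes at 130 d and 726 at 140 d out of 12770, and KCNK3 at base 269 was the only one of the 10 probes among them at either age. The order of the 4 group means was cortisol 130 d (5.42), control 130 d (5.46), cortisol 140 d (5.90) and control 140 d (5.90), and neighbours of the same age did not differ beyond their spread. The age differences of the 2 arms were apart by 0.03 ± 0.16 (SE; limma adjusted p 0.997).

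Cell type markers moved in the same comparisons. Of 16 listed heart muscle markers 2 were tested, and in controls both with age, MYH7 (the slow myosin heavy chain) by 0.58 and MB (myoglobin) by 0.48, and the mean of the list ran from 4.67 to 5.08 at 130 d and from 5.16 to 5.55 at 140 d. Blood cell markers fell, with 2 of 2 red blood cell genes and 3 of 6 immune genes called lower, and 3 of 7 adipocyte genes were called higher. Of all 797 named genes tested, 21.3% were called between ages in controls and 14.4% in the cortisol arm. In the cortisol arm the heart muscle list ran from 4.85 to 5.12 at 130 d and from 4.75 to 5.57 at 140 d. There 0 of 2 heart muscle, 0 of 2 red blood cell and 0 of 6 immune genes were called, and 2 of 7 adipocyte genes were higher. The cortisol arm's medians were 0.24 for heart muscle and -1.63 for red blood cell genes, on the same side as the 0.53 and -2.63 of controls. The part of cell makeup in the ATP1B1 rise was not tested.

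The rest of the pump and channel machinery was thinly covered. Of 22 listed pump and exchanger genes 3 were tested, and 0 were called between ages in either arm. FXYD6, a small regulator of the pump, differed by 0.10 in controls and by 0.11 in cortisol fetuses. Of 23 genes on the list of other channels 7 were tested, and AQP1, a water channel of vessel lining and red blood cells, was the only one called. It rose by 0.93 ± 0.30 (SE, limma adjusted p 0.0389) between ages in the cortisol arm, against 0.37 ± 0.29 (SE, 0.394) in controls. The difference between the arms was not called (0.56 ± 0.41 SE, limma adjusted p 0.974). In the cortisol arm 13.5% of all probes and 14.4% of named genes were called between ages, so 1 of 7 lies near the background.

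**Figure D2:**
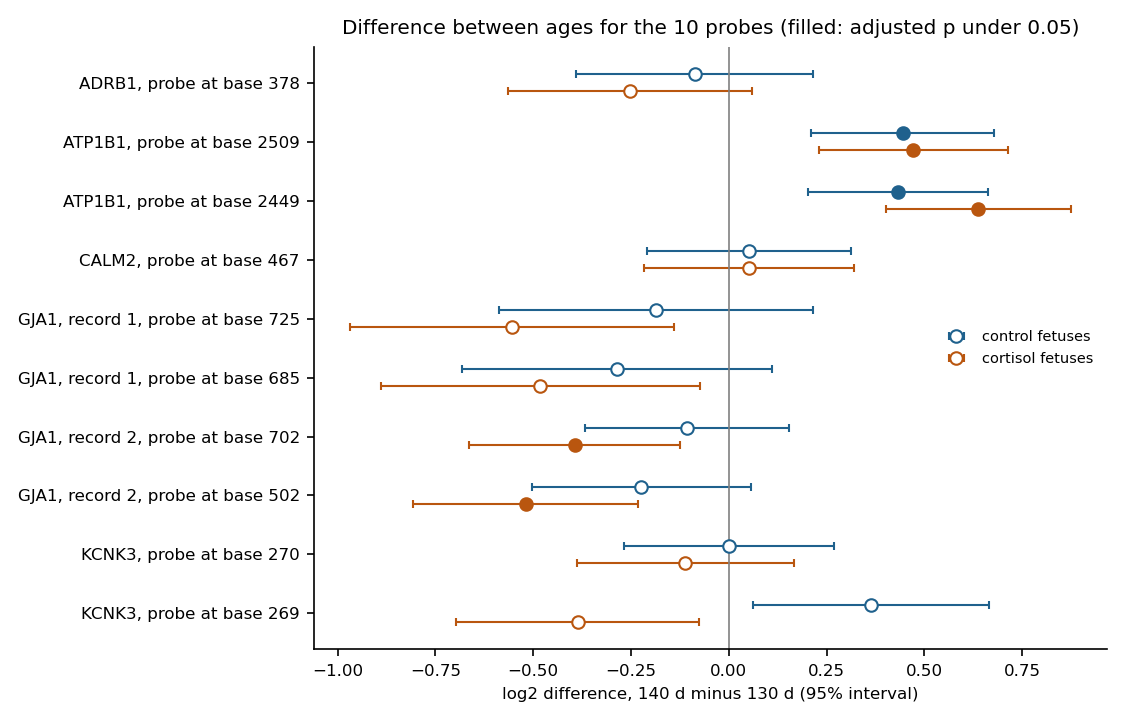
Difference between 140 d and 130 d for all 10 probes in control and in cortisol fetuses, on the log2 scale with 95% intervals; filled points were called. Both ATP1B1 probes were called in both arms, and 2 of 4 GJA1 probes in the cortisol arm.

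GJA1 was lower at 140 d than at 130 d by all 4 probes in both arms, and 2 of the 4 were called, both in the cortisol arm. The brightest probe was not among them. Over all probes 13.5% were called between ages in the cortisol arm, 8.52% lower, and 19.1% in controls, 9.35% lower. The 4 probes read 1 gene on the same arrays, so they are not 4 separate results. In cortisol fetuses the 4 differences ran from -0.55 to -0.39, and in controls from -0.29 to -0.11.

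The brightest GJA1 probe, at base 725 of record 1, ran from 4.07 to 4.54 around a median of 4.17 in the cortisol 130 d group and from 2.47 to 4.12 around 3.89 at 140 d. The groups overlapped, although 7 of 7 older arrays lay below the younger mean. The difference was -0.55 ± 0.20 (SE), with a limma adjusted p of 0.0654. In controls the same probe ran from 3.97 to 4.46 around 4.17 at 130 d and from 3.51 to 4.57 around 3.94 at 140 d, a difference of -0.19 ± 0.20 (SE; limma adjusted p 0.539).

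The probe at base 502 of record 2 separated the ages most cleanly in the cortisol arm. Its levels ran from -0.82 to -0.46 at 130 d and from -1.88 to -0.85 at 140 d, with no overlap. The difference was -0.52 ± 0.14 (SE; limma adjusted p 0.015), and it was called in 13 of 13 fits that left out an array of that arm. With the median scaling it was -0.42 and was not called (adjusted p 0.0685). The probe at base 702 of the same record differed by -0.39 ± 0.13 (SE; adjusted p 0.0452), with overlapping groups, and it was called in 4 of 13 such fits. The other probe of record 1, at base 685, differed by -0.48 ± 0.20 (SE; adjusted p 0.107).

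One fetus lay well below the rest. On the cortisol 140 d array of replicate 4, one of the 2 arrays that stood apart, the 4 probes read 2.47, 2.24, -1.48 and -1.88, the lowest value of all 27 arrays for each. The next lowest cortisol 140 d array read 3.46 at base 725. Without replicate 4 the difference in the brightest probe was -0.35 on the log2 scale (limma adjusted p 0.0971), and with both arrays that stood apart left out it was also -0.35, with a limma adjusted p of 0.0549. It was called when cortisol 140 d replicate 5 (-0.63, adjusted p 0.0441) or replicate 7 (-0.63, 0.0468) was left out. The same fit without both arrays called the probes at bases 502 (-0.40, adjusted p 0.00543) and 702 (-0.30, 0.0444) in the cortisol arm, and in controls the probes at bases 502 (-0.30, 0.028) and 685 (-0.37, 0.0404).

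**Figure D3:**
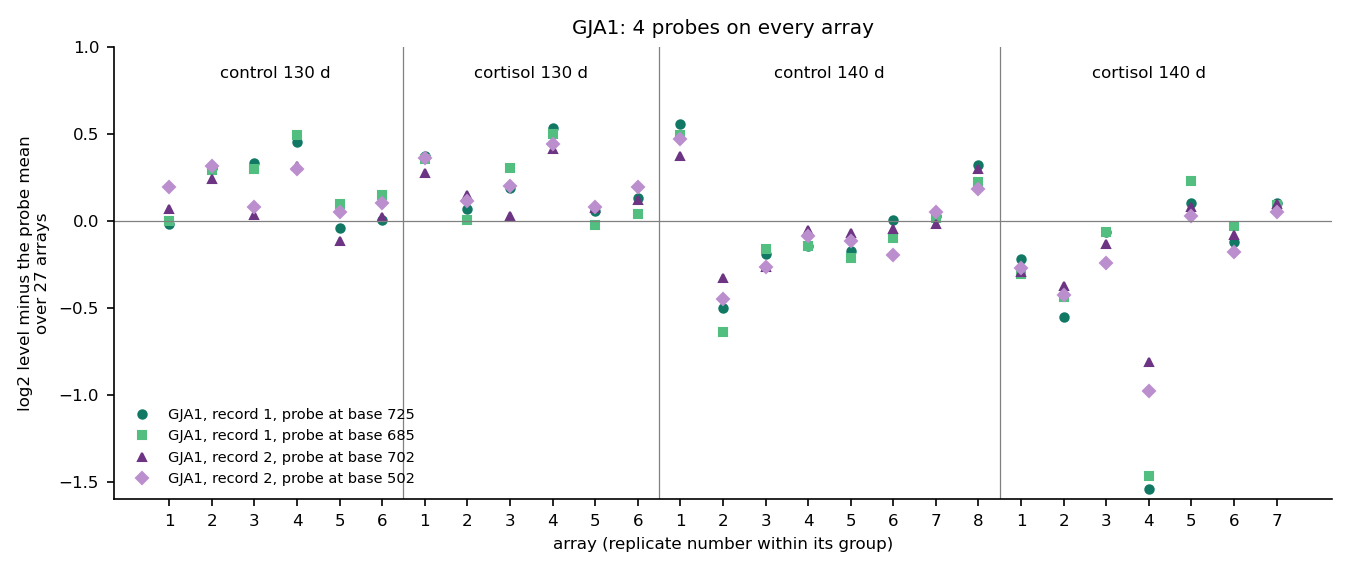
GJA1 on every array: log2 level of each of the 4 probes minus that probe's mean over the 27 arrays, by group and replicate number. The 4 sets of points run close together, and cortisol 140 d replicate 4 was the lowest array for each of them.

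The 4 GJA1 probes moved together from array to array. Their pairwise correlations over the 27 arrays were 0.925 to 0.980, on the same RNA and the same arrays, and this includes pairs from the 2 different sequence records. Averaged over the 4 probes, GJA1 was lower at 140 d in the cortisol arm by -0.49, with a limma adjusted p of 0.0486. Quantile normalization gave -0.69 for the brightest probe (adjusted p 0.0166), and scaling to the median gave -0.45 (0.162). With the median scaling 0 of 4 probes were called in the cortisol arm. The probe at base 702 also lost its call with quantile normalization (adjusted p 0.0748) and normexp (0.119), while base 502 kept it with both (0.0254 and 0.0468). The sign was negative for all 4 probes in both arms under each of these scalings. Within slides 2, 3 and 4 the cortisol arm gave -0.53, -1.08 and -0.22 for the brightest probe, slide 3 being that of replicate 4.

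Between treatments GJA1 was not called at either age. At 140 d the 4 probes were lower with cortisol by differences of -0.32, -0.22, -0.20 and -0.24 for bases 725, 685, 702 and 502, each with an adjusted p of 0.808. For the brightest probe the 95% interval was -0.70 to 0.07, and without both arrays that stood apart the difference was -0.03. At 130 d it was 0.05, with an interval of -0.38 to 0.48. Whether the age difference differed between arms was tested directly: the 2 age differences were apart by -0.37 ± 0.28 (SE; adjusted p 0.974), so the calls in the cortisol arm and their absence in controls do not make a difference between arms. Group means ran from high to low in the order cortisol 130 d (4.24), control 130 d (4.19), control 140 d (4.00) and cortisol 140 d (3.68), with neighbours within their spread.

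Fibroblast and endothelial markers, of cell types that can also carry connexin 43, were set beside GJA1. In the cortisol arm 0 of 5 tested fibroblast and 0 of 5 tested endothelial genes were called between ages, and in controls COL3A1, a fibrillar collagen, was the only one called (-0.59 ± 0.21 SE, limma adjusted p 0.0494). All 5 fibroblast genes had differences below 0 in both arms, with a median of -0.46 in cortisol fetuses and -0.51 in controls, so this list and GJA1 lay on the same side. The endothelial medians were -0.17 and -0.21. The mean of the fibroblast list ran from 1.24 to 1.66 at 130 d and from 0.58 to 2.06 at 140 d in cortisol fetuses, and their part in the GJA1 values was not tested.

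Other junction genes gave no call. Of 16 listed connexins and junction partners 4 were tested, and 0 were called between ages in either arm. GJA4 (connexin 37, a connexin of arterial endothelium) differed by -0.22 ± 0.10 (SE; limma adjusted p 0.108) in controls and by -0.16 ± 0.10 (SE; 0.29) in cortisol fetuses. TJP1, the scaffold ZO-1 that binds the tail of connexin 43, differed by 0.02 and -0.07.

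KCNK3 had group means that crossed, and the crossing rested on 1 of its 2 probes. By the probe at base 269 it was 1.30-fold higher with cortisol than in controls at 130 d and 1.29-fold lower with cortisol at 140 d, and neither difference was called. The probe that starts 1 base later showed no such crossing.

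At base 269 the 6 controls at 130 d ran from -3.62 to -3.28 around -3.47, and the 6 cortisol fetuses from -3.33 to -2.93 around -3.06. They overlapped by 1 array on each side, and 6 of 6 cortisol arrays lay above the control mean. The difference was 0.38 ± 0.16 (SE), with an unadjusted limma p of 0.0234 and an adjusted p of 1. At 140 d the 8 controls ran from -3.65 to -2.55 around -3.08 and the 7 cortisol fetuses from -3.94 to -3.07 around -3.46. Here the difference was -0.37 ± 0.14 (SE), with an unadjusted p of 0.0138 and an adjusted p of 0.808.

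The change of the cortisol difference between ages was -0.75 ± 0.21 (SE), with a 95% interval of -1.18 to -0.32. It ranked 52 of 12770 probes by p, with an unadjusted limma p of 0.00147 and an adjusted p of 0.332. No probe was called for this difference (0% of all probes, 743 at an unadjusted p under 0.05), and none of the 5 genes was. The other 4 genes gave -0.37 for GJA1, -0.17 for ADRB1, 0.03 for ATP1B1 and 0.00 for CALM2.

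Between ages the same probe differed by 0.36 ± 0.15 (SE; limma adjusted p 0.0798) in controls and by -0.39 ± 0.15 (SE; 0.0882) in cortisol fetuses. Neither passed the threshold as fitted. These 4 differences are made from the same 4 groups of arrays, so they are 1 pattern and not 4 pieces of support.

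**Figure D4:**
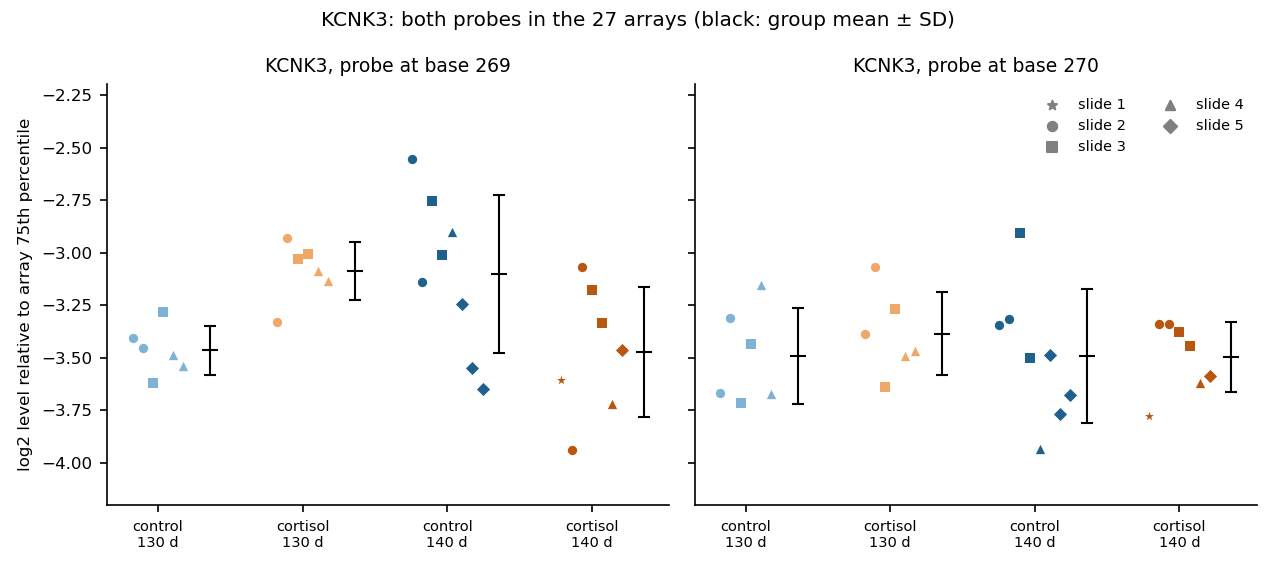
Levels of the KCNK3 probe pair on the 27 arrays (log2 relative to the array's 75th percentile), by group; the point shape gives the slide and black marks are group means ± SD. The crossing of the groups at base 269 is absent at base 270, and the 3 control 140 d arrays of slide 5 are the lowest of their group at base 269.

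At base 270 the group means were -3.49 in controls and -3.39 with cortisol at 130 d, and -3.49 and -3.50 at 140 d. The cortisol difference was 0.11 at 130 d (95% interval -0.18 to 0.39) and -0.01 at 140 d (-0.26 to 0.25), and its change between ages was -0.11 ± 0.19 (SE; limma adjusted p 0.98). Over the 27 arrays the pair correlated at 0.380, and at 0.398 after group means were taken out, against 0.931 and 0.852 for the ATP1B1 pair. Processed intensity ran from 65.8 to 145 at base 269 and from 49.5 to 134 at base 270, while the dimmest spot well above background on an array lay between 7.96 and 17.5.

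The slides moved with the control 140 d values. The 3 control arrays of slide 5 read -3.24, -3.55 and -3.65 at base 269, the lowest of the 8, and the 5 on slides 2 to 4 read between -3.14 and -2.55. Within slides 2, 3 and 4 the control age difference was 0.58, 0.57 and 0.61, the cortisol arm's was -0.37, -0.24 and -0.61, and with slide as a fixed block it was 0.51 ± 0.15 (SE), which was called (limma adjusted p 0.0177). The control difference was also called with the median scaling (0.45, 0.0275), quantile normalization (0.47, 0.0206) and the authors' deposited values (0.46, 0.0246). It was called too when replicate 7 (0.43, 0.0407) or replicate 8 (0.44, 0.0313), both of slide 5, was left out. With normexp it was 0.48 and was not called (limma adjusted p 0.343). The cortisol arm's difference was called when cortisol 140 d replicate 4 was left out (-0.44, adjusted p 0.0495). With both arrays that stood apart left out the control difference was 0.29 (adjusted p 0.129), while the cortisol arm then gave -0.44 (adjusted p 0.0282). Within slides the cortisol difference at 130 d was 0.30, 0.43 and 0.40 on slides 2, 3 and 4, and at 140 d it was -0.65, -0.37, -0.82 and 0.02 on slides 2, 3, 4 and 5. What slide and probe contribute to the pattern was not tested further.

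No other potassium channel could be set beside it, since 0 of the 21 listed were matched by name to a probe. Among the named genes whose levels followed the base 269 probe most closely over the 27 arrays, out of 784 compared, were DLL4 (a Notch ligand of endothelial cells; r = 0.747) and SPRY-2 (an inhibitor of receptor tyrosine kinase signalling; 0.734). After group means were taken out these were 0.763 and 0.762. The arrays share groups, slides and scaling, so these are descriptions.

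**Figure D5:**
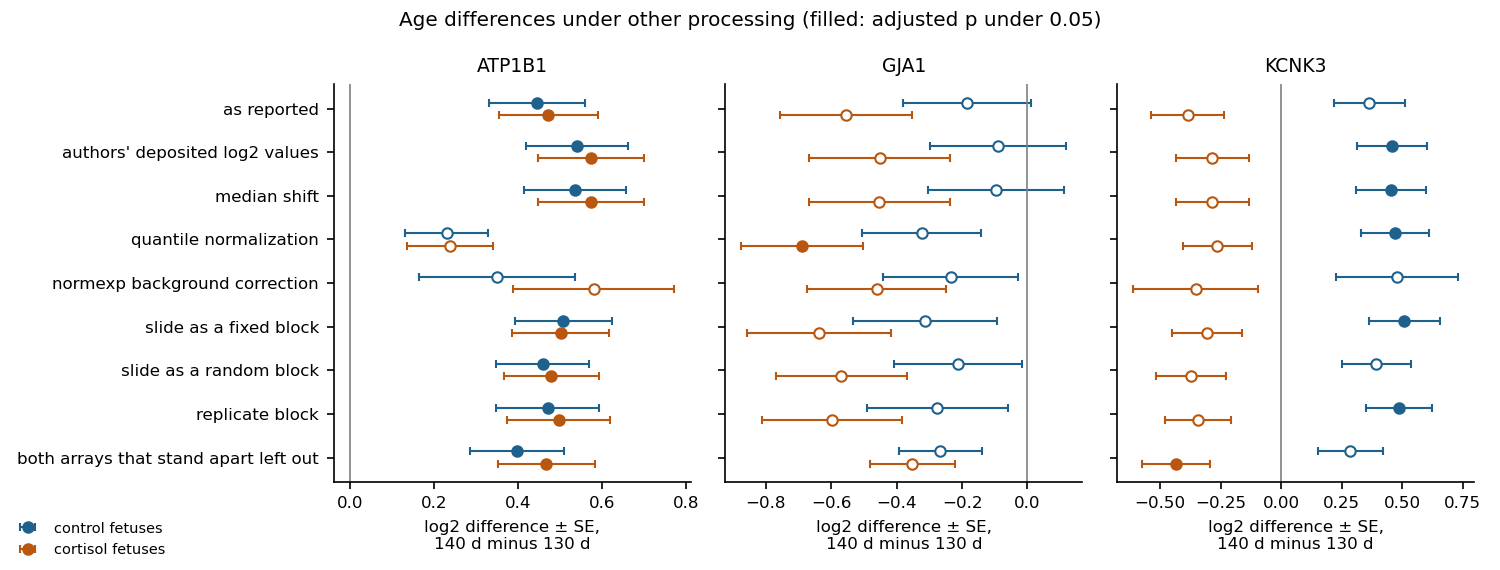
Difference between 140 d and 130 d for the brightest probes of ATP1B1, GJA1 and KCNK3 under 9 ways of processing, on the log2 scale ± SE; filled points had an adjusted p under 0.05. ATP1B1 stayed above 0 throughout and lost its call with quantile normalization and normexp, while KCNK3 in controls gained one with 5 settings, quantile normalization among them.

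ADRB1 was not called in any comparison. It ran from -2.41 to -1.73 around a median of -1.97 in controls at 130 d and from -2.27 to -1.69 around -2.03 with cortisol. At 140 d controls ran from -2.33 to -1.77 around -2.11, and cortisol fetuses from -3.06 to -1.82 around -2.17. All 4 groups overlapped, and the lowest of the 27 arrays was again cortisol 140 d replicate 4, at -3.06, with -2.45 next.

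For ADRB1 the cortisol difference was -0.01 at 130 d (95% interval -0.34 to 0.31) and -0.18 at 140 d (-0.47 to 0.11). Between ages it was -0.09 ± 0.15 (SE; limma adjusted p 0.718) in controls and -0.25 ± 0.15 (SE; 0.286) in cortisol fetuses. With both arrays that stood apart left out, the difference at 140 d was -0.04 and the cortisol arm's age difference -0.12. Within slides 2, 3, 4 and 5 the cortisol difference at 140 d was 0.23, -0.53, 0.02 and -0.45, so its sign was not shared by the slides. The control age difference turned to 0.00 with the median scaling and to 0.02 with normexp.

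The receptor's signalling partners were not called either. Of 27 listed genes 4 were tested, and 0 were called between ages. ADRB3, the beta-3 receptor, differed by -0.24 ± 0.13 (SE; limma adjusted p 0.188) in controls and -0.10 in cortisol fetuses. PRKACA and PRKAR1A, a catalytic and a regulatory subunit of protein kinase A, differed by 0.18 and 0.19 in controls and by 0.06 and 0.00 in the cortisol arm. CREB1, a transcription factor phosphorylated by that kinase, differed by 0.00 and -0.20 (adjusted p 0.993 and 0.0897).

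CALM2 was not called in any comparison. Its medians were 3.74 and 3.72 at 130 d and 3.76 and 3.85 at 140 d, control first, and every pair of groups overlapped. Differences ran from 0.02 to 0.05 over the 4 pairs of groups. The 95% intervals were -0.26 to 0.30 and -0.23 to 0.27 for cortisol at 130 d and 140 d, and -0.21 to 0.31 and -0.22 to 0.32 for age in controls and in cortisol fetuses. One array was far from its group: control 140 d replicate 1 read 4.56, with 3.86 next, and without it the control age difference was -0.06. Within slides 2, 3 and 4 the control age difference was 0.52, 0.05 and -0.29, and the cortisol difference at 140 d was -0.45, 0.03 and 0.50, with 0.10 on slide 5. Whether this probe also reads other transcripts was not checked. Of 18 listed calmodulin and calcium-binding partners 2 were tested, MYLK (myosin light chain kinase) and SRI (sorcin, which binds the ryanodine receptor), and neither was called between ages, with -0.49 ± 0.19 (SE; limma adjusted p 0.0683) and -0.30 ± 0.13 (SE; 0.102) in controls.

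Across the 5 genes the levels did not move as 1 group. Averaged over both ages, cortisol differed from control by between -0.13 (GJA1) and 0.02 (CALM2), and 0 of 5 genes and 0% of all probes were called (352 at an unadjusted p under 0.05 by limma). The median of the 5 genes was 0.05 in the control age comparison and -0.25 in the cortisol arm, beside -0.01 and -0.04 over all tested probes. Between genes, the largest correlation over the 27 arrays was 0.560, between ADRB1 and GJA1, and 0.458 after group means were taken out. Cortisol 140 d replicate 4 was the lowest array for both, at -3.06 and 2.47. The correlation was not computed without that array, so how far it rests on 1 fetus is not known.

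Levels of the other genes were followed most closely by different named genes. For ATP1B1 these were SLC25A6 (a mitochondrial ADP/ATP carrier; r = 0.796), GAPDH (a glycolytic enzyme; 0.792) and CXCL1 (a chemokine, listed as GRO; 0.783), which fell to 0.393, 0.544 and 0.474 after group means were taken out. For GJA1 they were ACVR2A (an activin receptor; 0.710), YWHAE (a 14-3-3 protein; 0.702) and RPA1 (a single-strand DNA binding protein; 0.693). For ADRB1 they were CLC4 (0.832), ARF1 (a small GTPase of the Golgi; 0.776) and TCP1 (a chaperonin subunit; 0.706), and for CALM2 EIF1AX (a translation initiation factor; 0.703), PPP2CA (a phosphatase subunit; 0.696) and EEF1E1 (0.645).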

How the data were processed

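The deposited scanner files hold spot intensity, background-subtracted and detrended but not scaled between arrays, per the file headers, and the submitters' processing notes name version 10.1.1.1 of Agilent Feature Extraction. The authors' deposited table holds log2 values; set against the scanner files each column was log2 intensity minus 1 constant per array, of unstated origin (column medians 0.105 to 0.145). Here log2 intensity minus the array's 75th percentile was used, with outlying spots left out. Probes well above background on at least 6 arrays (12770, 83 with a missing value) went into the linear model and empirical Bayes test of limma (version 3.58.1, R version 4.3.3), with 4 group means, no block, and Benjamini-Hochberg adjustment over all of them; p values are 2-sided and intervals 95%. The script was tested on simulated data. A gene was represented by its brightest probe. GJA1 includes probes named CONNEXIN 43, and symbols came from the files or the supplied sheep RefSeq table. The genes and lists were chosen with earlier results of these data known. Genes named were the 5, list genes past the threshold with the partners described, and the 3 named genes most correlated with each; some of these are not reported here. P values measure spread between fetuses. The number of arrays limits precision. Replicate numbers were not taken to pair arrays, although at 130 d they go with slide: same-numbered arrays correlated above 0.1 in 3 of 6, 3 of 7, 0 of 6 and 1 of 6 pairs. Alternatives covered background correction, scaling, the authors' values, filters, slide and replicate blocks, probe averaging and left-out arrays.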

Additional observations from a re-analysis of the deposited data

Results flagged for a closer look

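In a group of 4 to 10 arrays, a value was set aside for a closer look when its gap to the nearest other array, as a share of the group's range, passed Dixon's limit. Over 40 sets of 1 probe in 1 group this happened 4 times, where chance gives about 2.0 (1 in 20).

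For the brightest ATP1B1 probe, cortisol 130 d replicate 3 was far below its group (4.86, with 5.42 next; gap 0.7194 of the range). For CALM2, control 140 d replicate 1 was far above (4.56, with 3.86 next; 0.6879). For GJA1, cortisol 140 d replicate 4 was far below by both probes of record 1, at base 725 (2.47, with 3.46 next; 0.6016) and at base 685 (2.24, with 3.27 next; 0.608). These 2 probes read the same RNA of 1 fetus and are 1 event. The arrays for CALM2 and GJA1 are the 2 that stood apart from the others over all probes.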

How the results depend on the processing

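Over the alternatives run, the calls of ATP1B1 between ages were lost with quantile normalization and normexp and otherwise kept. The number of the 5 genes called between ages was 1 as reported in each arm. In controls it was 2 with the authors' values, the median shift, slide as a fixed block and the replicate block, and 0 with normexp; in the cortisol arm it was 2 with probes averaged, 2 without both arrays that stood apart (an alternative chosen after seeing the data) and 0 with normexp. It ran from 1 to 2 when 1 array was left out, in both arms. With quantile normalization it stayed 1, but the gene was KCNK3 in controls and GJA1 in the cortisol arm. The causes were not tested.

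Over all probes, 2442 and 1719 calls (controls, cortisol arm) became 536 and 339 with normexp, and 2897 without both arrays that stood apart in the cortisol arm. Of the calls, 51.1% and 36.7% were higher, against 70.6% and 63.8% with the median shift, 71.3% and 64.2% with the authors' values, 60.8% and 52.2% with normexp, and 46.4% with quantile normalization in the cortisol arm. The replicate block gave 2499 and 1788 calls; same-numbered arrays were best matched in 3 of 6, 2 of 7, 0 of 6 and 1 of 6 pairs, so the number did not pair arrays throughout, although same-numbered arrays of the 130 d groups also shared a slide. The correlation within slides was 0.0685.

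Of the differences that changed sign, none was called. For cortisol against control, normexp gave at 130 d 0.22 for ADRB1, -0.14 for CALM2 and -0.12 for GJA1, at 140 d -0.013 for CALM2, and over both ages 0.11 for ADRB1 and -0.077 for CALM2. Quantile normalization gave for ATP1B1 0.012 at 130 d, 0.020 at 140 d and 0.016 over both ages, and -0.00126 for KCNK3 over both ages. At 140 d ATP1B1 was 0.000511 with the authors' values, 0.00069 with probes averaged and 0.037 without both arrays, and CALM2 was -0.030 with the fixed slide block and -0.012 with the replicate block. Over both ages KCNK3 was -0.030, -0.00502 and -0.036 with the fixed slide, random slide and replicate blocks, CALM2 was -0.00382 with the fixed slide block, and without both arrays ATP1B1 was 0.00197 and GJA1 0.010. The change of the cortisol difference between ages was -0.00657 for ATP1B1 with the fixed slide block, and for CALM2 -0.052, -0.00922 and -0.035 with the fixed slide, random slide and replicate blocks. Between ages, ADRB1 in controls was 0.020 with normexp, 0.00248 with the median shift and 0.00756 with the authors' values, and CALM2 was -0.088 (controls) and -0.073 (cortisol arm) with quantile normalization and -0.056 (controls) without both arrays.

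Within single slides, with 1 to 3 arrays a group and no test, some signs turned by more: at 140 d cortisol against control was 0.23 for ADRB1 (as reported -0.18) and -0.45 for CALM2 (0.02) on slide 2 and 0.20 for ATP1B1 (-0.01) on slide 4, and CALM2 between ages in controls was -0.29 on slide 4 (0.05).

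With 1 array left out, the differences whose sign changed ran as follows. At 130 d they ran from -0.096 to 0.039 for ADRB1, -0.075 to 0.080 for ATP1B1, -0.030 to 0.092 for CALM2 and -0.00848 to 0.11 for GJA1. At 140 d they ran from -0.047 to 0.041 for ATP1B1 and -0.016 to 0.13 for CALM2, and in controls between ages from -0.056 to 0.12 for CALM2. Over both ages they ran from -0.041 to 0.037 for ATP1B1, -0.00371 to 0.076 for CALM2 and -0.036 to 0.042 for KCNK3. The change between ages ran from -0.086 to 0.074 for ATP1B1 and -0.069 to 0.11 for CALM2.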
